A study of Homo sapiens with 30 samples.

Results

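The first step of a neural differentiation of human pluripotent stem cells was followed as the open chromatin regions gained, lost and kept between undifferentiated cells and day 1 definitive ectoderm. Peaks of all 10 deposited peak lists on chromosomes 1 to 22 were merged where they overlapped by at least 1 bp, which gave 476170 regions. A list was called open at a region where it had a peak. Of these regions, 265211 were open in the pluripotent list, the ectoderm list or both, and they are the regions described here. A gained region had a peak in the ectoderm list and none in the pluripotent list, a lost region the reverse, and a kept region had a peak in both.

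All groups came from H1, a human embryonic stem cell line, labelled wild-type, so every group shares the genotype of 1 line. OmniATAC-seq was used, an assay whose Tn5 transposase cuts and tags exposed DNA, on 50000 cells per library, with 3 biological replicates in each of 10 groups. The pluripotent group (hPSC) was taken on day 0 from hPSC medium. The definitive ectoderm group (DE) was taken on day 1, after 24 hours in CDM2, a chemically defined medium, with 4 inhibitors. These were A8301 at 1 µM, which blocks the activin, NODAL and TGF-beta type I receptors, trametinib at 250 nM, which blocks MEK, C59 at 1 µM, which blocks secretion of WNT ligands, and LDN193189 at 100 nM, which blocks BMP type I receptors. The 4 inhibitors were given together, so their separate parts cannot be told apart, nor can they be told apart from the change of base medium. The other 8 lists are used only to show what became of a region later. They hold anterior (aNE) and posterior (pNE) neural ectoderm of day 2, both made from DE, and 6 populations of day 4 made from aNE or pNE in telencephalon (_T), midbrain (_M) or hindbrain (_H) medium.

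Each group is represented by 1 list of peak positions without a height, so replicate error is not known for any value, no test was made, and the comparison is of 2 lists. Read depth is unknown. The hPSC list held 205831 peaks on chromosomes 1 to 22 and the DE list 238994. Their median widths were 264 bp and 265 bp, and they covered 81.8 Mb and 90.7 Mb. Since a longer list gains regions by its length alone, the class counts, distances to gene starts, promoter states and gene windows were repeated with the DE list cut to its 205831 widest peaks, called the equal-size lists.

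In pluripotent human cells, activin and NODAL signalling through SMAD2 and SMAD3, together with FGF signalling through MEK and ERK, maintains the network of OCT4 (POU5F1), SOX2 and NANOG. When NODAL and BMP signals are blocked, such cells take a neural ectoderm path, and WNT signals push ectoderm towards posterior fates. Accessible sites fall broadly into promoters, which are often rich in CpG dinucleotides and open in many cell types, and distal elements such as enhancers, which differ more between cell types.

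Examples of promoters that entered or left the lists show how unlike each other such sequences were. They were chosen by a fixed rule, as genes named below whose peak covered at least 125 of the 250 bases before the gene start. The sequences are the 250 bases before the start, from RefSeq on GRCh38.p14, given 5′ to 3′ on the strand of the gene, and capitals mark matches to the motifs listed with the promoter results. No sequence of the distal regions was read, because a genome was not used here. The gained promoters were those of TAS1R3, a subunit of the sweet and umami taste receptors (chr1:1331030-1331279, plus strand), KMT2C, a histone H3 lysine 4 methyltransferase (chr7:152436004-152436253, minus strand), and WNT8B, a WNT ligand of the early brain (chr10:100462759-100463008, plus strand).
TAS1R3: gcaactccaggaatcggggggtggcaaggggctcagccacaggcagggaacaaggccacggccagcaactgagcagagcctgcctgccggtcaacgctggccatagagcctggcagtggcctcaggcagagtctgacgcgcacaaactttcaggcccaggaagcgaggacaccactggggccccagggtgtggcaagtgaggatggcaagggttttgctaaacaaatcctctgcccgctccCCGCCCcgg
KMT2C: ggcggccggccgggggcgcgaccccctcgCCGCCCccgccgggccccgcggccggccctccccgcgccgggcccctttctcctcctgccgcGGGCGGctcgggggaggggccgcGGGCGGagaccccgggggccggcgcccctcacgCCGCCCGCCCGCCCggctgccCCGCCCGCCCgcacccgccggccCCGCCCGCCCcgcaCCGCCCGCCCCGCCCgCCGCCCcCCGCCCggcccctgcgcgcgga
WNT8B: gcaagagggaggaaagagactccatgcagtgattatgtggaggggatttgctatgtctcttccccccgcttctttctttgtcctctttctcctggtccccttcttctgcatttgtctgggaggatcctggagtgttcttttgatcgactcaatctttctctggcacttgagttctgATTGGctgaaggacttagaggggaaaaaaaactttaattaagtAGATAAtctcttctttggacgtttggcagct

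The lost promoters printed are those of SLC2A14, a glucose transporter whose gene neighbours NANOG (chr12:7872916-7873165, minus strand), CMKLR2, a receptor for chemerin (chr2:206213372-206213621, minus strand), and PAPLN, an extracellular matrix protein (chr14:73237256-73237505, plus strand).
SLC2A14: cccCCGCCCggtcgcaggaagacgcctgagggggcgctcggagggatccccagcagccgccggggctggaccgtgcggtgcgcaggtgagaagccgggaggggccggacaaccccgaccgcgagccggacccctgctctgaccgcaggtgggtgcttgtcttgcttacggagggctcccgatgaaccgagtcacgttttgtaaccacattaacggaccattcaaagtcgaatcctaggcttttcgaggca
CMKLR2: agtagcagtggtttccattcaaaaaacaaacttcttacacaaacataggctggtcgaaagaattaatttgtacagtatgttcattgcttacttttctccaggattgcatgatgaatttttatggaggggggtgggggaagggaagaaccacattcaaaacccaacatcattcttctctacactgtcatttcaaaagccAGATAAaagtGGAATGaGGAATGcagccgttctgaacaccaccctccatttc
PAPLN: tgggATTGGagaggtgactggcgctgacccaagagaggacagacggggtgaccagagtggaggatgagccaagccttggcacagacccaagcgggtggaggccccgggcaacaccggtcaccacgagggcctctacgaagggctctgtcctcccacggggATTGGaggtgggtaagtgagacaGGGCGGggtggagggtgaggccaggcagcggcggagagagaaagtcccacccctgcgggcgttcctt

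These 6 windows ranged from 40.4% GC in CMKLR2 to 92.0% in KMT2C. The KMT2C window held 15 matches to GGGCGG, the core bound by SP and KLF factors, while WNT8B held none of these, with 1 match each to CCAAT and AGATAA. CMKLR2 held GGAATG, the TEAD core, at 2 positions beside 1 AGATAA. Both classes thus contained GC-rich and AT-rich sequences.

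More chromatin regions entered the peak lists than left them during the first day. Of the 265211 regions open in either list, 72245 (27.2%) were gained, 41938 (15.8%) were lost and 151028 (56.9%) were kept. The kept regions made up 78.3% of the hPSC regions and 67.6% of the DE regions. The equal-size lists gave 52688 gained, 52369 lost and 140597 kept. Gained minus lost regions is the difference between the numbers of regions open in each list, 223273 in DE and 192966 in hPSC, so lists of equal size have nearly equal counts by construction. No net opening can be read from either pair of counts.

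Gained and lost regions were narrow. The median peak width was 180 bp in gained regions (quartiles 133 and 259 bp) and 161 bp in lost ones (127 and 217 bp). Kept regions had 335 bp in hPSC and 356 bp in DE. Peaks under 150 bp accounted for 25082 gained and 17910 lost regions, and 62.7% of the DE regions and 52.0% of the hPSC regions of that width were absent from the other list. Among regions with a peak of 500 bp or more, 2888 were gained and 754 were lost, which was 5.35% of the wide DE regions and 1.53% of the wide hPSC regions. The number of gains per loss went from 1.40 below 150 bp to 1.57, 1.92, 2.84 and 3.83 in the successive wider classes (150 to 199, 200 to 299, 300 to 499, and 500 bp or more). Peaks of 500 bp or more numbered 49938 in hPSC and 54907 in DE, 24.3% and 23.0% of each list. The equal-size lists keep DE peaks of 136 bp or more and so do not equalise the number of wide peaks. The part of list length, read depth and the caller's threshold in these classes was not tested.

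**Figure D1:**
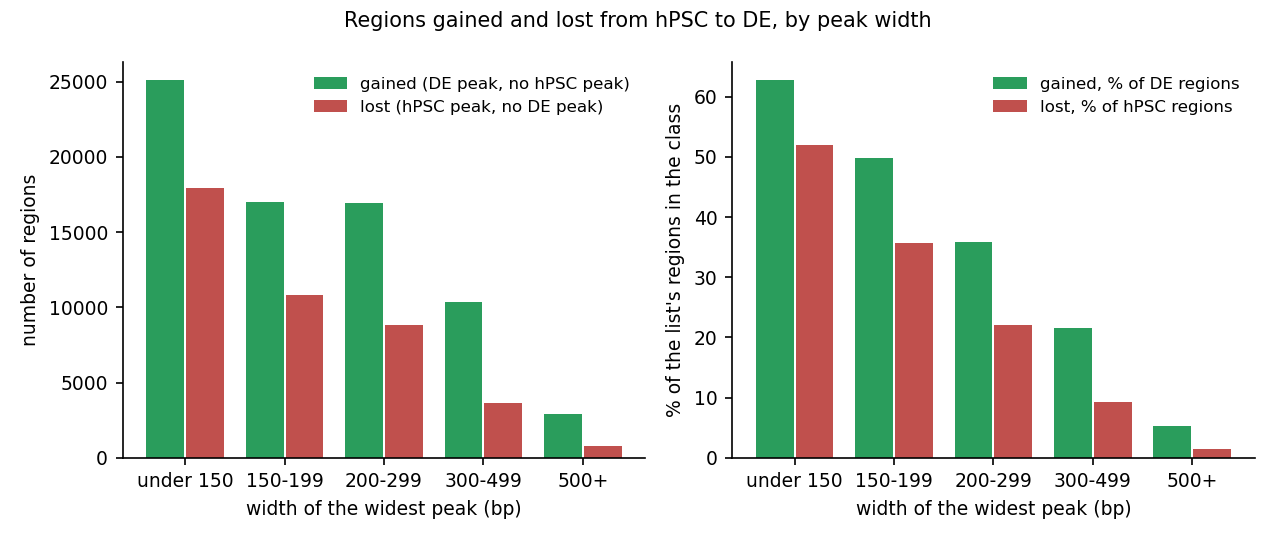
Number of regions gained (green) and lost (red) from hPSC to DE by the width in bp of the region's widest peak (left), and the same as a percentage of all DE or hPSC regions of that width (right). Most gained and lost regions had narrow peaks, 25082 and 17910 under 150 bp, and above 500 bp gains outnumbered losses by 3.83.

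Gained and lost regions lay farther from gene starts than kept regions. For genes without a known start, either gene end was taken as the start. Within 1 kb of the start of a protein-coding gene lay 1132 gained regions (1.57%), 1048 lost (2.50%) and 15467 kept regions (10.2%). The median distance to a start was 56.9 kb for gained, 47.8 kb for lost and 40.6 kb for kept regions. Beyond 100 kb lay 35.2% of gained, 30.8% of lost and 28.9% of kept regions. The shares inside a protein-coding gene were close to each other, at 53.0%, 52.7% and 55.7%. The equal-size lists gave 1.60%, 2.52% and 10.8% within 1 kb. Lost regions were nearer to starts than gained ones in both forms of the lists, most of all among wide peaks, where 5.57% of the lost and 1.35% of the gained regions lay within 1 kb.

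The chromosomes took part nearly evenly. The gained share was between 26.1% and 29.1% of the open regions on each chromosome except 19, where it was 19.0%. The lost share ran from 14.2% on chromosome 19 to 17.6% on chromosome 4. Chromosome 19, which is dense in genes, was therefore lowest in both. A gained region had another gained region within 10 kb in 50.6% of cases and a lost region another lost one in 37.6%. In the equal-size lists the values were 41.4% and 43.0%, so this order turned and the difference in grouping does not stand apart from list length.

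Kept regions mostly kept their width. The ratio of bases in peaks, DE over hPSC, had a median of 1.0, and 131455 of the 151028 kept regions (87.0%) changed by less than 2-fold. At least 2-fold widening was seen in 12043 regions (7.97%), which went from a median of 166 bp to 488 bp, and narrowing in 7530 (4.99%), from 450 bp to 164 bp. These regions were also distal, with 2.10% of the widened and 4.28% of the narrowed within 1 kb of a start, against 11.3% of the others. In aNE a day later 76.0% of the widened and 52.9% of the narrowed regions were open, beside 76.6% of the regions of steady width. In pNE the shares were 73.0%, 59.3% and 78.5%. The later lists entered the classing only through the borders of the merged regions. Narrowed regions have narrow DE peaks by definition, with a median of 164 bp in DE against 373 bp in regions of steady width. Wide peaks recurred more often, as 15.3% of gained regions under 150 bp and 75.7% of those of 500 bp or more were open in aNE. Widened regions also lay below steady ones in aNE_H, at 64.0% against 73.2%. The classes were not matched for width, so no direction can be read from these shares.

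The later lists separated gained from lost regions. Gained regions were open in aNE in 30.8% of cases and in pNE in 31.5%, lost regions in 10.2% and 21.1%, and kept regions in 75.4% and 77.1%. On day 4 the gained regions were open in 37.0% (aNE_T), 35.1% (aNE_M), 28.8% (aNE_H), 28.0% (pNE_T), 26.2% (pNE_M) and 39.8% (pNE_H). The lost regions were open in 16.2%, 22.6%, 21.7%, 17.3%, 19.8% and 31.8% of cases in the same order. Gained regions were thus above lost ones in each of the 8 lists, and both were highest in pNE_H, the longest list. Of the gained regions 36.0% appeared in no later list and 7.60% in all 8. Of the lost regions 52.2% appeared in none and 2.42% in all.

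The gap between gained and lost regions was larger among wide peaks in each of the 8 later lists. Of the 2888 gained regions of 500 bp or more, 75.7% were open in aNE (Wilson 95% interval 74.1% to 77.2%) and 57.9% in pNE. Of the 754 lost regions of that width, 21.8% were open in aNE (19.0% to 24.8%) and 29.6% in pNE. These intervals cover the number of regions only and no error between libraries. The day 4 shares of wide gained regions fell between 41.8% in pNE_M and 73.8% in aNE_T, and those of wide lost regions between 24.7% in pNE_T and 37.3% in pNE_H. As few as 301 wide gained regions (10.4%) were in no later list, while 326 wide lost regions (43.2%) were in none. In the other direction, 661 (22.9%) and 49 (6.50%) were in all 8.

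Gained and lost regions were divided differently between the day 2 branches. A gained region was open in both day 2 lists in 13762 cases (19.0%), in aNE alone in 8464 (11.7%), in pNE alone in 8969 (12.4%) and in neither in 41050 (56.8%). A lost region was open in both in 2673 cases (6.37%), in aNE alone in 1614 (3.85%), in pNE alone in 6170 (14.7%) and in neither in 31481 (75.1%). Regions open in hPSC and again in 1 branch were therefore mostly in pNE, whereas gains were divided almost evenly. The aNE list is the shortest of the 10, with 162041 peaks against 199638 in pNE, and the part of list length in this difference was not tested. Of the day 2 media, that of pNE held FGF2, the retinoid TTNPB and the tankyrase inhibitor XAV939, while that of aNE kept C59.

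**Figure D2:**
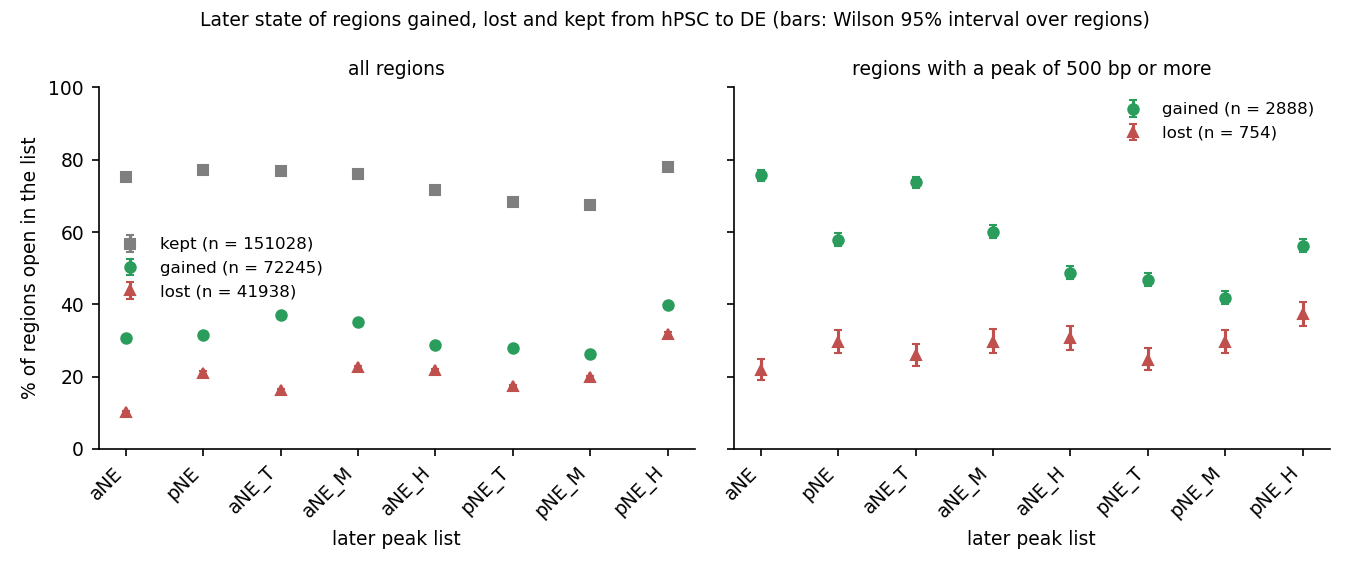
Percentage of regions gained (green circles), lost (red triangles) and kept (grey squares) from hPSC to DE that were open in each of the 8 later lists, for all regions (left) and for gained and lost regions with a peak of 500 bp or more (right). Bars are Wilson 95% intervals over regions. Gained regions lie above lost ones in each list, and in aNE the wide regions reached 75.7% against 21.8%.

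Promoters were mostly constant. Of 19126 autosomal protein-coding genes, 15101 had a known start, and a promoter was open with a peak within 1 kb of it. Among these, 311 promoters (2.06%) were gained, 248 (1.64%) lost, 12046 (79.8%) kept, and 2496 were open in neither list. The order of gains and losses was not stable, at 254 and 327 in the equal-size lists, 279 each with a 500 bp window, and 323 and 232 with a 2 kb window. For the other 4025 genes, where either end of the gene was used, 89 were gained and 75 lost.

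Among genes listed by function, few promoters changed. HOXD3, a posterior patterning factor, gained a promoter peak that was open in all 8 later lists. GATA2, a factor of surface ectoderm and blood, gained a 174 bp peak that was open in 4 later lists (aNE, aNE_T, aNE_M and pNE_T). WNT8B gained a 275 bp peak that was open in aNE, aNE_T and aNE_M and in none of the pNE lineage. HOXA2, a hindbrain gene, lost a 222 bp peak, and PAX2, a midbrain and hindbrain factor, a 168 bp peak. The HOXA2 region was open again in all 8 later lists, the PAX2 region only in aNE_T. UMOD, a kidney gene from a list of genes of unrelated tissues, also gained a promoter peak, of 324 bp and seen in no later list. By either gene end, the promoter state was gained at LEFTY2 and FGF17 and lost at LHX1. No gained region lay within 1 kb of either end of LEFTY2. Its state came from a kept region with 845 bp in peaks in hPSC and 1056 bp in DE. At FGF17 no gained region had this gene as its nearest. Promoter gains also occurred at UMOD, a gene outside these lineages.

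Kept promoters were GC-rich and both changing classes were poor in CpG. In the 300 bases around the start (250 before and 50 after), the median CpG ratio, observed over expected from base composition, was 0.825 in kept, 0.340 in lost, 0.203 in gained and 0.207 in closed promoters. The GC medians were 65.3%, 56.3%, 51.3% and 46.3% in the same order. Over all 15101 promoters the medians were 0.767 and 63.0%. Gained promoters therefore resembled closed promoters in CpG ratio, while lost promoters lay between these and the kept ones.

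The kept promoters differed from the other classes in several short motifs. Searched on both strands were the octamer ATGCAAAT, the SOX core AACAAT, AP-1 as TGAGTCA or TGACTCA, ETS CCGGAAG, SP/KLF GGGCGG, NRF1 TGCGCATGC, NFY CCAAT, the E-box CACGTG, the TATA box TATAAA, TCF/LEF CTTTGAT, SMAD GTCTAGAC, OTX TAATCC, TEAD GGAATG and, for GATA factors, AGATAA. No motif in this list contains another. GGGCGG was in 17.4% of gained, 35.1% of lost, 69.4% of kept and 15.4% of closed promoters, against 58.9% of all. CCGGAAG was in 2.89%, 4.03%, 17.2% and 3.29%, against 14.4% of all. TATAAA was in 21.2% of gained, 14.5% of lost, 6.11% of kept and 25.2% of closed promoters, and in 9.71% of all. AACAAT was in 12.9%, 11.3%, 5.12% and 15.4%, with 7.08% overall. CCAAT did not set kept promoters apart, with 29.9% of gained, 39.5% of lost, 35.6% of kept and 38.1% of closed promoters, and 36.0% of all.

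The OTX motif TAATCC, the site of OTX2 and other homeodomain factors, was more frequent in gained than in lost promoters. It was in 40 of 311 gained promoters (12.9%, Wilson 95% interval 9.59% to 17.0%) and 11 of 248 lost promoters (4.44%, 2.49% to 7.77%). Kept promoters had it in 4.26%, closed promoters in 9.94% and all promoters in 5.38%. The gained share was thus close to that of closed promoters, which share its low GC content, and 14 motifs were compared. The octamer recognised by POU factors such as OCT4 was in 2.89% of gained and 2.02% of lost promoters, with 1.69% of all, and these few promoters do not separate the classes. A match is a run of letters and not a bound site.

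**Figure D3:**
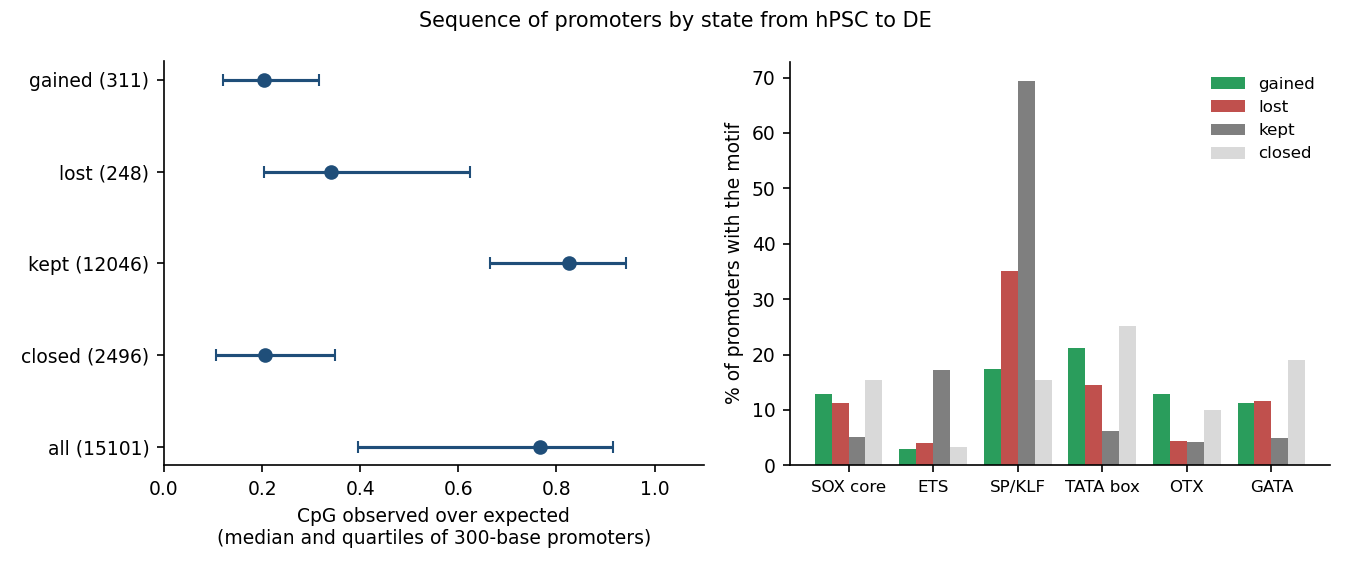
Left, CpG observed over expected in 300-base promoters (median and quartiles) by state from hPSC to DE, with the number of promoters in brackets. Right, percentage of gained, lost, kept and closed promoters holding each of 6 motifs. Kept promoters stand apart with a median CpG ratio of 0.825 and GGGCGG in 69.4%, while gained promoters lie near closed ones.

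Regions near genes were counted in a window of each gene with 50 kb added on either side. More gained than lost regions were found at 11967 of the 19126 genes (62.6%) and more lost than gained at 4178 (21.8%), with a median difference of 1 region. With equal-size lists 37.8% had more gained and 44.3% more lost, and the median was 0. The hPSC and DE names were checked against promoters of marker genes first. All 24 genes of the pluripotency list had a kept promoter, as had 38 of 40 early neural genes, so promoter peaks did not separate the groups and the names rest on the labels.

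Losses were common near pluripotency genes, though the count depended on how regions were assigned. Of the 24 genes, 12 had more lost and 9 more gained regions, with a median of −0.5, and with equal-size lists 19 had more lost, 3 more gained, and the median was −3. In a 10 kb window as deposited, 10 had more lost and 6 more gained, and by nearest gene start 10 each. The shares of all genes with more lost regions were 21.8%, 44.3%, 21.2% and 18.5% in these 4 settings. The shift at equal size is not theirs alone, since 13 of 14 housekeeping genes also had more lost regions in the equal-size lists, with a median of −1. The bases in peaks, as log2 of DE over hPSC, had a median of −0.10 over the pluripotency windows and 0.06 over all genes.

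NANOG, a core pluripotency factor, had the largest surplus of lost regions of the 24. Its window held 1 gained, 9 lost and 10 kept regions, and bases in peaks went from 7131 in hPSC to 4195 in DE. The window covered 3284 bp of peaks in aNE, 3533 in pNE, 3795 in aNE_T, 3401 in aNE_M, 3671 in aNE_H, 2344 in pNE_T, 4100 in pNE_M and 6226 in pNE_H. hPSC was therefore above all 9 other lists, with the long pNE_H list nearest. The window held 21 peaks in hPSC and 13 in DE, followed by 8 in aNE and 12 in pNE. In the day 4 lists they ran from 6 in pNE_T to 17 in pNE_H. The promoter peak was kept, as were regions just before it and at the 3′ end of the gene, and 6 of the 9 lost regions appeared in no later list. The lost regions lay on both sides of the gene, from 37.7 kb before to 56.7 kb after the start, the latter inside SLC2A14. The promoter of SLC2A14, beyond the window, also lost its peak.

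**Figure D4:**
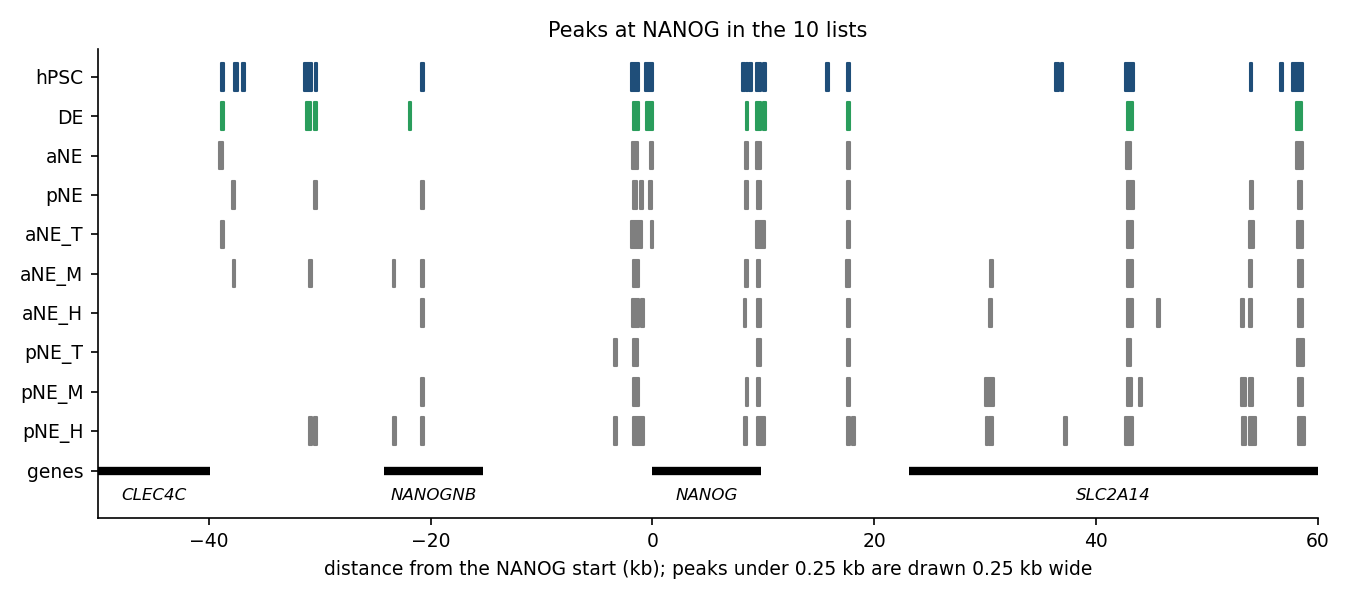
Peaks of the 10 lists around NANOG, by distance in kb from its start, with genes drawn below and cut at the plot's edges. The hPSC list (blue) has 21 peaks in the gene's window and DE (green) 13, and the later lists (grey) have between 6 and 17.

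Some other genes of primed pluripotent cells showed smaller losses. L1TD1, an RNA-binding protein of pluripotent cells, had 3 gained, 5 lost and 11 kept regions, and bases in peaks went from 9536 to 6977. DPPA2, a chromatin factor next to DPPA4, had 2 gained and 6 lost regions (6128 to 5071 bp). CRIPTO, the NODAL co-receptor, had none gained and 4 lost (11225 to 9319 bp). DNMT3B, a de novo DNA methyltransferase, had 5 gained and 8 lost (13269 to 11772 bp). PRDM14, a repressor that supports pluripotency, had 2 gained and 3 lost (10182 to 8292 bp). The loss was thus seen at several genes of the list, and each of these kept most of its hPSC regions. They were named from the 12 of 24 genes with more lost regions, while 9 had more gained. Among those 9 were PODXL (13 gained, 7 lost), TERT (8 and 3) and ZFP42 (6 and 2). By nearest gene start the whole list had 183 gained and 134 lost regions.

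In the lists as deposited, the other core factors did not share the surplus of losses seen at NANOG. POU5F1 had 4 gained, 2 lost and 11 kept regions, and its bases in peaks went from 5699 to 6067. SOX2, which neural cells also use, had 5 gained, 3 lost and 16 kept (7690 to 8077 bp). SALL4 had 10 gained and 2 lost (5073 to 6082 bp). In the equal-size lists the order turned at POU5F1 (3 gained, 4 lost) and SOX2 (3 and 5) but not at SALL4 (7 and 4). NANOG had 0 gained and 10 lost there. The 98 distinct lost regions in the pluripotency windows were open in aNE in 6 cases (6.12%) and in pNE in 15 (15.3%), and 55 (56.1%) were in no later list. Over the windows of all genes the shares of lost regions were 10.4% in aNE and 53.1% in no later list. Of the 101 gained regions in the pluripotency windows, 32 (31.7%) were open in aNE, beside 29.6% over all genes.

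Genes of the inhibited pathways did not share a direction. In the NODAL and activin list 7 of 18 genes (38.9%) had more gained and 6 (33.3%) more lost regions, beside 62.6% and 21.8% of all genes, and at equal size 5 and 12. SMAD3, which carries the signal to the nucleus, had 18 gained and 5 lost (14150 to 17543 bp in peaks), and ACVR1B, which encodes the ALK4 receptor, had 8 gained and 1 lost. LEFTY2, a NODAL target and inhibitor, had 1 gained and 3 lost regions. In the FGF and ERK list 15 of 27 genes (55.6%) had more gained and 8 (29.6%) more lost. SPRED2, an inhibitor of the ERK cascade, had 17 gained and 7 lost, and the ligand gene FGF8 8 gained and 1 lost.

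ERK feedback and early response genes went both ways. The phosphatase genes DUSP4 and DUSP5 had 6 gained and 2 lost, and 7 and 2. The early response genes EGR2 and EGR3 had 5 gained and 2 lost, and 5 and 3. ETV4 and ETV5, ETS factors induced by FGF, had 4 and 1, and 4 and 2. SPRED1 and PHLDA1 each had 3 gained and 7 lost regions, and their bases in peaks went from 5957 to 4575 and from 8045 to 5623. SPRY4 had 7 gained and 8 lost, and DUSP6, the ERK phosphatase, 4 each. FGF2 had 4 gained and 7 lost. EGR1, an immediate early gene induced by ERK, had 1 gained and 3 lost, and 1 of the lost regions, chosen after its values were seen, held a peak of 1217 bp centred 4.97 kb past its start (chr5:138469837-138471053) that was in none of the 9 other lists. In the equal-size lists 9 of the 27 genes had more gained and 15 more lost, 33.3% and 55.6%, beside 37.8% and 44.3% of all genes.

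In the WNT list 15 of 21 genes had more gained and 5 more lost, and in the BMP list 14 of 20 and 4. These shares, 71.4% and 70.0% with more gains, stood beside 62.6% of all genes, and at equal size the counts were 7 and 12, and 9 and 8. LEF1, the WNT effector, had 10 gained and 4 lost, and WNT3, a ligand, 5 gained and none lost. AXIN2, the WNT feedback target, had 4 gained and 5 lost. BMP7 had 11 gained and 3 lost (11321 to 15117 bp), and the receptor gene BMPR1A 8 gained and 12 lost (20544 to 17776 bp). ID1, ID2 and ID4, targets of BMP, had between 2 and 5 gained regions and 1 lost region each, and ID3 had 5 gained and 6 lost.

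The balance near early neural genes turned with the way regions were assigned to genes. Within 50 kb, 21 of 40 genes (52.5%) had more gained and 15 (37.5%) more lost, beside 62.6% and 21.8% of all genes. Within 10 kb the shares were 30.0% and 42.5%, beside 47.9% and 21.2% of all genes. By nearest gene start, which takes in regions at any distance, 33 of 40 genes (82.5%) had more gained and 5 (12.5%) more lost. The share of genes with more gains was the highest of the 12 lists, and over all genes the shares were 50.1% and 18.5%. Gained and lost regions were equal in number at 2 of the 40 genes, but at 6020 of all 19126. By this rule the early neural genes held 584 gained, 295 lost and 1213 kept regions, beside 72245, 41938 and 151028 over all genes. The median surplus by nearest start was 4.5 regions, against 1 for all genes. In the equal-size lists, within 50 kb, 12 genes had more gained and 22 more lost. The share of early neural genes with more gained than lost regions was thus below that of all genes close by. It was above that of all genes when distal regions were counted, and this difference was not tested. The per-gene share and the median surplus by nearest start depend on how many regions a gene holds. Ties were rarer at the early neural genes. No surplus of gains particular to early neural genes can therefore be read from the nearest-start values. These shares give the balance of gains and losses per gene and not the number of gains, which was 203 within 50 kb, with 141 losses, at the 40 genes. Over all 19126 genes these numbers were 95785 and 59731. Within 50 kb the surplus of gains was largest at NCAM1 and ZNF521. NCAM1, a neural adhesion molecule, had 16 gained, 1 lost and 29 kept regions, and its bases in peaks went from 12497 to 18294. ZNF521, a factor that promotes early neural fate, had 19 gained and 4 lost (11938 to 15110 bp). CDH2, or N-cadherin, had 11 gained and 3 lost (6656 to 8407 bp), and 10956 bp in aNE. SHISA2, which lowers WNT and FGF signalling, had 9 gained and 3 lost. At NCAM1 the widest gained peak, 814 bp, lay in a merged region (chr11:113123594-113124521) that was open in all 8 later lists.

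Other neural regulators were divided. PAX6 had 6 gained and 2 lost, OTX2 7 and 6, and SOX1 4 and 7. ZIC1, in a window shared with ZIC4, had 2 gained and 7 lost regions (11274 to 9593 bp), and NR2F1, a patterning factor of the forebrain, 1 and 7 (11019 to 7543 bp). POU3F2 had none gained and 2 lost. The 199 distinct gained regions in the early neural windows were open in aNE in 78 cases (39.2%), above the 29.6% over all genes, and the 131 lost regions in 23 (17.6%), above the 10.4% over all genes. Lists of other fates reached like shares, with 20.7% of lost regions open in aNE at surface ectoderm and 17.8% at neural crest genes, and 42.9% of gained regions at mesendoderm genes.

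Posterior genes of the HOXB cluster lost more regions than they gained. HOXB1 had 2 gained, 9 lost and 19 kept, and HOXB2 and HOXB4, whose windows overlap it, 4 and 10, and 5 and 11. The bases in peaks at HOXB1 went from 10683 in hPSC to 8219 in DE, and were 8897 in aNE and 9815 in pNE. Among day 4 lists, aNE_T had 7791 bp, aNE_M 7484 and aNE_H 7859, while pNE_T had 12086, pNE_M 12840 and the longest list, pNE_H, 15432. The pNE lineage was thus above DE and the day 4 aNE lineage below it. Of the 9 lost regions, 8 were open in at least 1 later list, whereas 52.2% of all lost regions were in none. EN2, a midbrain and hindbrain factor, had 2 gained and 7 lost. RARB, a retinoic acid receptor and target, went the other way with 23 gained and 7 lost (13033 to 16687 bp). In the whole posterior list 13 of 23 genes (56.5%) had more gained and 7 (30.4%) more lost, beside 62.6% and 21.8% of all genes, and at equal size 6 and 14.

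Genes of other fates also went both ways. Over all genes, 62.6% had more gained and 21.8% more lost regions within 50 kb. In the surface ectoderm list, 13 of 22 genes (59.1%) had more gained and 7 (31.8%) more lost, and at equal size 7 and 11. TFAP2A, an early regulator of surface ectoderm and neural crest, had 3 gained, 10 lost and 18 kept regions (13566 to 9552 bp). GATA3 had 5 and 8, while GRHL3 had 9 and 2 (8266 to 11612 bp) and TP63 15 and 5, its annotated start being closed in both lists. Of 12 neural crest genes 7 (58.3%) had more gained and 3 (25.0%) more lost, and at equal size 6 and 5, with PAX3 at 10 and 2 and SNAI2 at 1 and 5. Of 17 mesendoderm genes 9 (52.9%) had more gained and 2 (11.8%) more lost, and at equal size 4 and 9. TBXT had 5 and 4, EOMES 4 and 1. Among 18 genes of unrelated tissues such as blood, liver and muscle, 13 (72.2%) had more gained and 3 (16.7%) more lost. At equal size these were 6 and 8, and by nearest gene start 8 and 6.

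**Figure D5:**
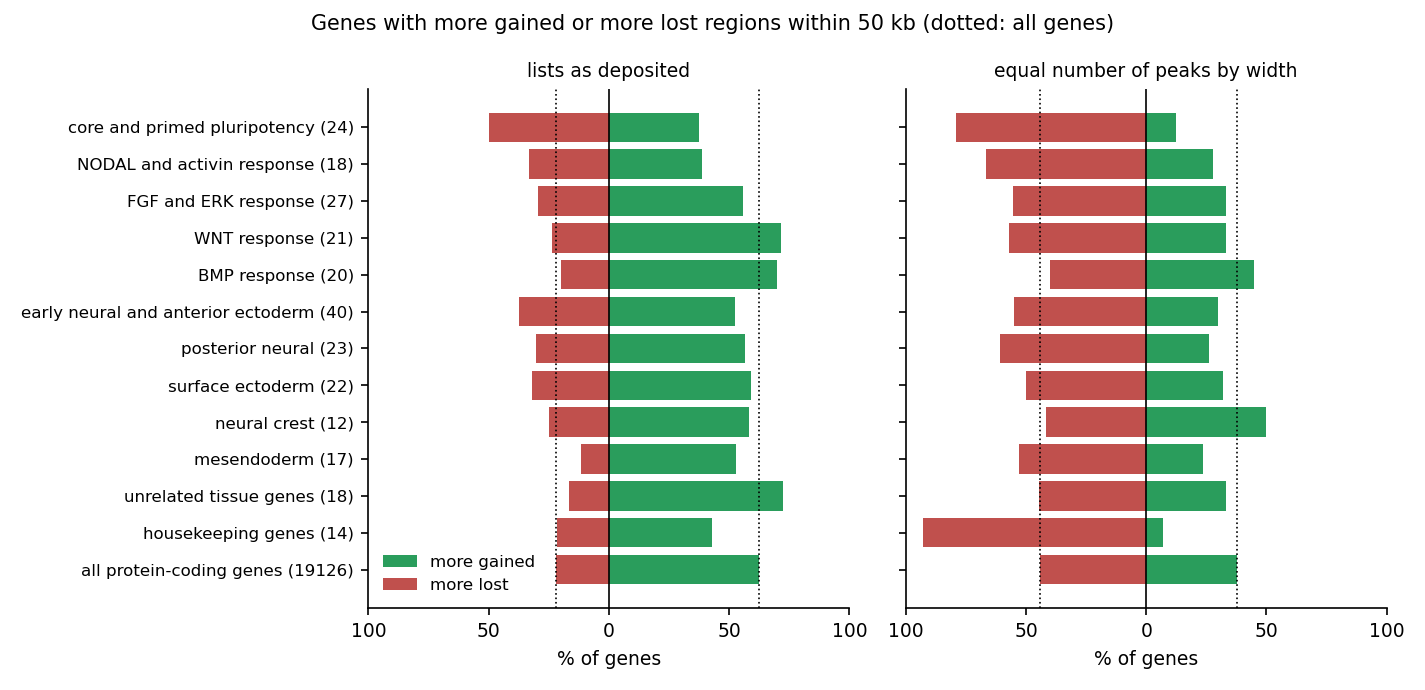
Percentage of genes in each list with more gained (green, right) or more lost (red, left) regions within 50 kb, for the lists as deposited and for equal numbers of peaks. Numbers of genes are in brackets, and dotted lines give all protein-coding genes (62.6% and 21.8% as deposited, 37.8% and 44.3% at equal size). Pluripotency and housekeeping genes lie farthest to the left at equal size.

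By nearest gene start, genes with a large surplus of gains were long genes, several of them with roles in the nervous system. AUTS2, a neurodevelopmental gene, had 91 gained, 27 lost and 100 kept regions, and CADM1, a cell adhesion molecule, 66, 8 and 83. RBFOX1, a neuronal splicing factor, had 72 and 23, and CDH13, or T-cadherin, 52 and 10. The gained share was between 37.9% at RBFOX1 and 44.4% at CDH13, above the 27.2% of all regions, though these genes were picked for it. Bases in peaks in the AUTS2 window (the gene and 50 kb on either side) went from 50059 in hPSC to 64307 in DE and 46296 in aNE, and at CADM1 from 12443 to 17505 and 14566. In the equal-size lists CADM1 had 50 gained and 13 lost, and AUTS2 68 and 36.

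Among genes with a large surplus of losses, ROBO1, an axon guidance receptor, had 33 gained, 48 lost and 46 kept regions. ADCY2, an adenylate cyclase, had 13 gained and 26 lost, and CNTN6, a neural contactin, 2 and 16. SPATA31A6 had 2 and 20, and belongs to a family of near-identical copies, so its values are uncertain. Bases in peaks in the ROBO1 window went from 18885 in hPSC to 17123 in DE and then 15926 in aNE and 24941 in pNE. Neural genes thus stood at both ends of this ranking.

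Among regions beyond 1 kb of a start, several of the widest gained ones persisted. The widest gained distal peak, 1556 bp near ALPG, a placental type alkaline phosphatase (chr2:232409644-232411199), was in DE and no later list. Those of 1382 bp near ACTL7B (chr9:108473316-108474697, 381 kb from the start), 1278 bp near BARX2, a homeobox gene (chr11:129612094-129613371, 159 kb from the nearer gene end), and 1254 bp near PAX8 (chr2:113355281-113356534, 76.2 kb) were open in all 8 later lists. A 1268 bp peak 731 kb from AUTS2 (chr7:68865817-68867084) was open later in aNE and aNE_T only. Of these 5 gained regions 3 thus persisted throughout the lineage.

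The wide lost distal peaks named here were each in at most 2 later lists. Those of 1489 bp at GRIN1 (chr9:137150302-137151790) and 1275 bp near SOX4 (chr6:21551974-21553248) were in no later list. A 1367 bp peak 17.6 kb from L1TD1 (chr1:62212425-62213791) was later seen in pNE_M only, and a 1340 bp peak 328 kb from TECRL (chr4:64737135-64738474) in pNE and pNE_T. None of these 4 was open in aNE.

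Among gained regions within 1 kb of a gene start, the widest peaks were at TAS1R3 (1313 bp), KMT2C (1015 bp), CABP2, a calcium sensor (924 bp), TESPA1 (912 bp) and ATP6V0D2, a proton pump subunit (792 bp), and each was open in at least 3 later lists. Among lost regions there, the widest peaks were at SLC2A14 (1079 bp), MCL1, an anti-apoptotic gene (1055 bp), SF3B3, a splicing factor (995 bp), PAPLN (909 bp) and CMKLR2 (848 bp). The SF3B3 and PAPLN regions were open in all 8 later lists, so DE was the only list without a peak there, while the MCL1 region was in hPSC alone. SLC2A14 was open later in pNE and pNE_H. TESPA1, ATP6V0D2, MCL1 and SF3B3 had no known start. Their peaks lay within 1 kb of either gene end, and which end is the start was not known here.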

How the data were processed

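Members and gene lists were chosen with earlier results of these data known. The deposited files are peak lists of 3 columns (sequence, start, end), 1 per group. The submitters' processing notes name hg38, FastQC, Bowtie2, MACS2, bedtools, featureCounts, edgeR and deepTools, without roles. The caller's threshold, the way 3 replicates were combined and the read depth are not given in the sources used here. A change of any of them would move every count. Positions are 1-based.

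Peaks of 10 lists on chromosomes 1 to 22 were merged at 1 bp of overlap, with Python 3.11.15, numpy 2.4.6, pandas 2.3.3 and matplotlib 3.10.9. Gene positions, promoters and symbols came from RefSeq tables of GRCh38.p14. Of 19126 protein-coding genes, 15101 had a start there, and either end was used for the other 4025. Of 251 listed genes 249 were matched, CRIPTO through TDGF1, and CDX4 and PGK1 are not autosomal. Equal-size lists keep the 205831 widest peaks. Named genes were the list members, the 5 genes per direction with the largest surplus by nearest start, and those nearest the 5 widest gained and lost peaks within and beyond 1 kb. The code was tested on simulated peaks. A genome sequence was not used here, so motifs were counted in promoters only. Wilson intervals are at 95% and cover the number of regions. Chromosome X and other sequences were left out of the classes. Some genes that this rule names are not reported here.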

Additional observations from a re-analysis of the deposited data

Results flagged for a closer look

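Data outside the main counts also held signal. On chromosome X, 2421 regions were gained and 1565 lost, of 9404 open in either list, or 25.7% and 16.6%, near the autosomal shares. Sequences other than the chromosomes held 6.31% of the hPSC peaks and 6.15% of the DE peaks. These include alternate forms of the region of chromosome 6 that holds POU5F1, with 2532 hPSC and 2675 DE peaks, and how reads were divided between these copies was not tested.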

How the results depend on the processing

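Of 46 alternative values, 30 stayed within the set limits and 16 moved. A count was called moved when it changed by more than a factor of 1.5, which is a wide limit. The kept count of 151028 could not move when only gained and lost regions were dropped, and it is among the 30. The tally is therefore no measure of stability. The order of gains and losses turned at equal size for promoters (254 gained, 327 lost) and for genes (37.8% with more gained regions), and for early neural genes in a 10 kb window (12 more gained, 17 more lost). Calling a region open only where peaks covered 50% of it left 97228 kept regions. Dropping gained and lost regions with a peak of the other list within 1 kb left 56883 gained and 29495 lost. The dropped regions may hold split or shifted peaks of 1 element, which was not tested. The widest 50% of each list gave 36654 gained, 21142 lost and 78185 kept, and peaks of 200 bp or more 48004 gained and 26993 lost. At equal size 10.8% of kept regions lay within 1 kb of a start, 36.9% of gained and 13.8% of lost regions were open in aNE, 44.3% of genes had more lost regions, and so did 19 pluripotency genes. With starts of all annotated genes, 5.60% of gained, 7.59% of lost and 16.3% of kept regions lay within 1 kb. Genes with more lost regions were 21.2% in a 10 kb window and 18.5% by nearest start. No paired analysis was possible because the lists hold no values per replicate, and for the same reason no replicate was left out. Without peak heights, a region missing from a list may be open below its threshold.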
